A study of Mus musculus with 16 samples.

Results

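The euploid cerebella of the crosses behind the Ts65Dn and TcMAC21 Down syndrome models were compared with each other, so that 8 pups without any trisomy were set side by side. The 4 Ts65Dn euploid pups came from a C57BL/6J x C3H/HeJ advanced intercross, and the 4 TcMAC21 euploid pups came from a C57BL/6J (B6) x DBA/2J (D2) background. All pups were at postnatal day 6 (P6), none was treated, and poly(A) RNA of the whole cerebellum was sequenced. The other 8 of the 16 animals in the series were the trisomic littermates. The Ts65Dn pups among them carry an extra chromosome with segments of mouse chromosomes 16 and 17, and the TcMAC21 pups carry human chromosome 21 on an artificial chromosome. Genes were included when their mean normalized count over the 8 euploid pups was at least 10. A normalized count is the read count divided by 1 size factor per library. Rows of human chromosome 21 and of mouse chromosomes X and Y were left out. This rule kept 12938 of 13807 genes in the table, left out 578 by chromosome (109 of chromosome 21, 463 of X and 6 of Y) and dropped 291 for low counts. The lowest mean inside the limit was 10.01 and the highest outside it was 9.97.

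At this age the cerebellum is growing quickly, because granule cell precursors in the external granule layer divide in response to Sonic hedgehog (SHH) secreted by Purkinje cells. Inbred strains such as C57BL/6J, C3H/HeJ and DBA/2J carry different alleles at many genes, and an allele that alters a promoter, a splice site or a whole gene copy can change the RNA level of that gene or of its neighbours. In a cross of inbred strains, littermates can inherit different alleles, so that such genes may vary among pups of one cross as well as between crosses.

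Some limits of the groups apply to all values below. Pups were taken as littermate pairs, 1 trisomic and 1 euploid, from 2 Ts65Dn and 3 TcMAC21 litters, and the labels do not give the litter of each pup. Cross, strain background and litter therefore cannot be told apart, and p-values measure the spread between pups that may share a litter. In whole tissue, fewer cells of a type and less RNA per cell cannot be told apart either. The identifiers of the genes consist of a chromosome and a number and carry no symbols, so cerebellar marker genes were not checked and no gene is named here. Genes are placed by their rank in identifier order among the included genes of a chromosome, for example gene 125 of 844 on chromosome 4, and this order was taken as an assumed order along the chromosome.

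The 4 Ts65Dn euploid libraries held 9140152, 25719969, 6317856 and 16466981 reads on genes in replicates 1 to 4, and the TcMAC21 euploid libraries held 19560621, 11052121, 16410021 and 15335426. The shallowest library, Ts65Dn euploid replicate 3, sets the coarsest step, and 3 reads corresponded to a normalized count of at most 6.63 in any library. The difference in read totals between the crosses was within their spread (two-sided exact permutation test, p = 0.83, 4 against 4, for which the smallest possible p is 0.0286).

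2 libraries stood apart from the rest. Pearson correlations of log2(normalized count + 1) over the 12938 genes were 0.991 to 0.992 among Ts65Dn euploid replicates 2, 3 and 4, but 0.940 to 0.961 for pairs that included replicate 1. Among the TcMAC21 euploid pups they ranged from 0.962 to 0.987, and between the crosses from 0.934 to 0.984. On the first principal component, with 40.7% of the variance, Ts65Dn euploid replicate 1 lay at 62.0 and the other 7 pups between −27.3 and 2.07. The second component, with 23.2%, placed Ts65Dn euploid replicates 2 to 4 between −21.2 and −13.0 and TcMAC21 euploid replicates 1 to 3 between 14.0 and 27.9. TcMAC21 euploid replicate 4, at −17.7, lay with the Ts65Dn euploid pups on this component, but at 38.0 on the third component (18.6%), where the other 7 pups lay between −14.1 and 15.9. When replicate 1 of the Ts65Dn euploid pups was left out, the first component (38.3%) put TcMAC21 euploid replicate 4 (−22.5) on the side of the 3 remaining Ts65Dn euploid pups (−17.9 to −12.4), opposite the other TcMAC21 euploid pups (12.4 to 34.1). The second component (30.4%) put it at 35.1, far from the Ts65Dn euploid pups (−19.7 to −11.4) and above the other TcMAC21 euploid pups (−3.63 to 17.5). Many of the counts below are therefore also given without Ts65Dn euploid replicate 1, and some without TcMAC21 euploid replicate 4, but none without both.

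**Figure D1:**
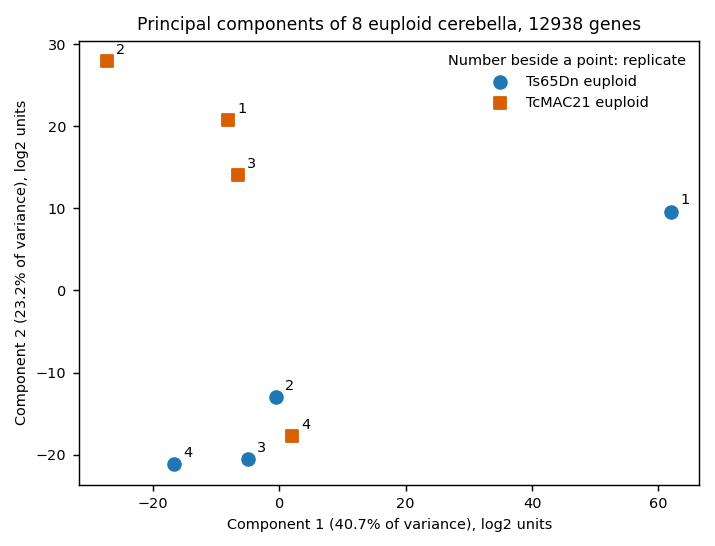
First and second principal components of log2(normalized count + 1) for the 8 euploid cerebella, with the replicate number beside each point. Ts65Dn euploid replicate 1 lies at 62.0 on component 1, and TcMAC21 euploid replicate 4 lies among the Ts65Dn euploid pups on component 2, though at 38.0 on the third component, which is not drawn.

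With limma on log2(normalized count + 1), 16 of 12938 genes (0.124%) passed a Benjamini-Hochberg adjusted p of 0.05, 8 higher and 8 lower in the Ts65Dn euploid pups (0.0618% each way). Before adjustment, 1868 genes (14.4%) had a p under 0.05. In 1287 genes (9.95%) the values of the 4 pups of one cross all lay above those of the other cross, with 682 genes (5.27%) higher and 605 (4.68%) lower in Ts65Dn euploid. Differences were mostly small. The median absolute log2 difference was 0.19 over all genes, 12064 genes differed by less than 1.5-fold, and 127 differed by 2-fold or more (67 higher and 60 lower in Ts65Dn euploid). Among the 1287 genes without overlap, 882 differed by less than 1.5-fold and 83 by at least 2-fold. The share without overlap was 6.77% for genes with a mean from 10 to 50, between 9.69% and 10.6% for genes with means from 50 to 5000, and 16.8% for the 376 genes with a mean of 5000 or more. Without Ts65Dn euploid replicate 1, the median absolute log2 difference was 0.19, 163 genes differed by at least 2-fold (94 higher and 69 lower), 1934 of the 2611 genes without overlap differed by less than 1.5-fold and 132 by at least 2-fold, and the shares without overlap at these levels were 13.5%, 20.1% to 21.6% and 30.1%.

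The number of genes past the threshold depended on single pups. Without Ts65Dn euploid replicate 1, limma called 315 genes (2.43%), 167 higher (1.29%) and 148 lower (1.14%) in the Ts65Dn euploid pups, and 16 of the 16 genes called from all pups were among them. Without TcMAC21 euploid replicate 4 the count was 72. It fell to 4, 4 and 5 without Ts65Dn euploid replicates 2, 3 and 4, and to 8, 9 and 3 without TcMAC21 euploid replicates 1, 2 and 3. Genes without overlap numbered 2611 (20.2%) without Ts65Dn euploid replicate 1 and 2948 without TcMAC21 euploid replicate 4, in comparisons of 3 against 4 pups, which separate more easily. On the read counts recovered from the table, edgeR called 14 genes (0.108%) and DESeq2 called 451 of 12686 (3.56%), 247 higher (1.95%) and 204 lower (1.61%) in Ts65Dn euploid.

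The 8 genes that were lower in Ts65Dn euploid lay on chromosomes 2, 4, 5, 6, 7 and 13. The largest difference among them was that of chr4.333597, gene 125 of 844 on chromosome 4. It read 131, 109, 102 and 115 normalized counts in Ts65Dn euploid replicates 1 to 4 and 494, 464, 568 and 710.3 in TcMAC21 euploid replicates 1 to 4. All TcMAC21 euploid values were more than 3 times the highest Ts65Dn euploid value. The means were 114 ± 12.6 and 559 ± 109.9 (SD, n = 4 each), 4.89-fold apart, with a log2 difference of −2.27 ± 0.17 (SE, limma adjusted p = 0.000497).

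The second identifier on the lower side, chr13.125920, was gene 7 of 470 on chromosome 13. Its values were 36.4, 48.1, 81.8 and 54.2 in Ts65Dn euploid and 201, 197, 239 and 375 in TcMAC21 euploid. The groups were well apart, although the highest pup in each was about 2 times the lowest. Means of 55.1 ± 19.3 and 253 ± 83.8 (SD, n = 4 each) gave a log2 difference of −2.19 ± 0.28 (SE, limma adjusted p = 0.0166).

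Gene 371 of 1072 on chromosome 2 had 101.2, 145, 146 and 160.1 normalized counts in Ts65Dn euploid and 394, 506, 434 and 554 in TcMAC21 euploid. Its log2 difference was −1.77 ± 0.18 (SE, limma adjusted p = 0.00432). Gene 284 of 867 on chromosome 5 ranged from 30.0 to 56.7 in Ts65Dn euploid and from 92.0 to 177 in TcMAC21 euploid, a log2 difference of −1.86. Gene 127 on chromosome 4, 2 places from chr4.333597 in identifier order, was lower in the same direction, with 47.4 to 87.0 against 147 to 271 and a log2 difference of −1.62. The 3 other genes on this side were gene 207 on chromosome 6, gene 299 on chromosome 13 and gene 721 on chromosome 7, with log2 differences of −1.32, −1.14 and −0.85. All 8 genes separated the pups of the crosses completely, and their folds ran from 1.80 to 4.89.

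The 8 genes that were higher in Ts65Dn euploid lay on chromosomes 1, 4, 9, 13 and 17. The largest difference among them was that of chr13.136080, gene 229 of 470 on chromosome 13, with 1115, 744, 851 and 691 normalized counts in Ts65Dn euploid and 171, 102, 193 and 292 in TcMAC21 euploid. The lowest Ts65Dn euploid pup stood well above the highest TcMAC21 euploid pup. Means were 850.3 ± 188 and 189 ± 78.6 (SD, n = 4 each), 4.49-fold apart, with a log2 difference of 2.23 ± 0.28 (SE, limma adjusted p = 0.0166).

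The second identifier on the higher side was chr4.338558, gene 241 of 844 on chromosome 4. It read 212, 255, 278 and 275 in Ts65Dn euploid and 86.5, 53.2, 51.8 and 64.4 in TcMAC21 euploid. The 4 values of each cross lay close together. The log2 difference was 2.00 ± 0.20 (SE, limma adjusted p = 0.00432). The next gene in identifier order, gene 242, differed in the same direction at a higher level, with 1395, 1102, 1121 and 1025 against 697, 483, 628 and 568 and a log2 difference of 0.97 ± 0.15 (SE, limma adjusted p = 0.0448). The identifier numbers of these neighbours differ by 1.

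Chromosome 9 held the other adjacent pair. Gene 381 of 798 read 1738, 1745, 2042 and 1804 in Ts65Dn euploid and 979, 416, 429 and 683 in TcMAC21 euploid, a log2 difference of 1.64 ± 0.24 (SE, limma adjusted p = 0.0316). Gene 382 read 481, 400.03, 469 and 409 against 219, 216, 245 and 189, a log2 difference of 1.01 ± 0.14 (SE, limma adjusted p = 0.0262). In both genes the lowest Ts65Dn euploid pup exceeded the highest TcMAC21 euploid pup by more than 1.5-fold. Whether neighbours are separate genes or parts of 1 transcribed unit cannot be read from the identifiers. The remaining genes on this side were gene 256 on chromosome 17, gene 515 on chromosome 1 and gene 464 on chromosome 13, with log2 differences of 1.56, 1.12 and 0.91.

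The 16 genes had means from 52.7 to 1229 normalized counts over the 8 pups, and the fewest reads behind any of their values was 14. Chromosomes 4 and 13 each held 4 of them, chromosome 9 held 2, and 6 other chromosomes held 1 each. When each pup was left out in turn, no gene changed sign, 3 genes (chr4.333597, chr4.338558 and gene 371 on chromosome 2) stayed past the threshold in all 8 fits, and the highest adjusted p of limma for any of the 16 was 0.203.

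**Figure D2:**
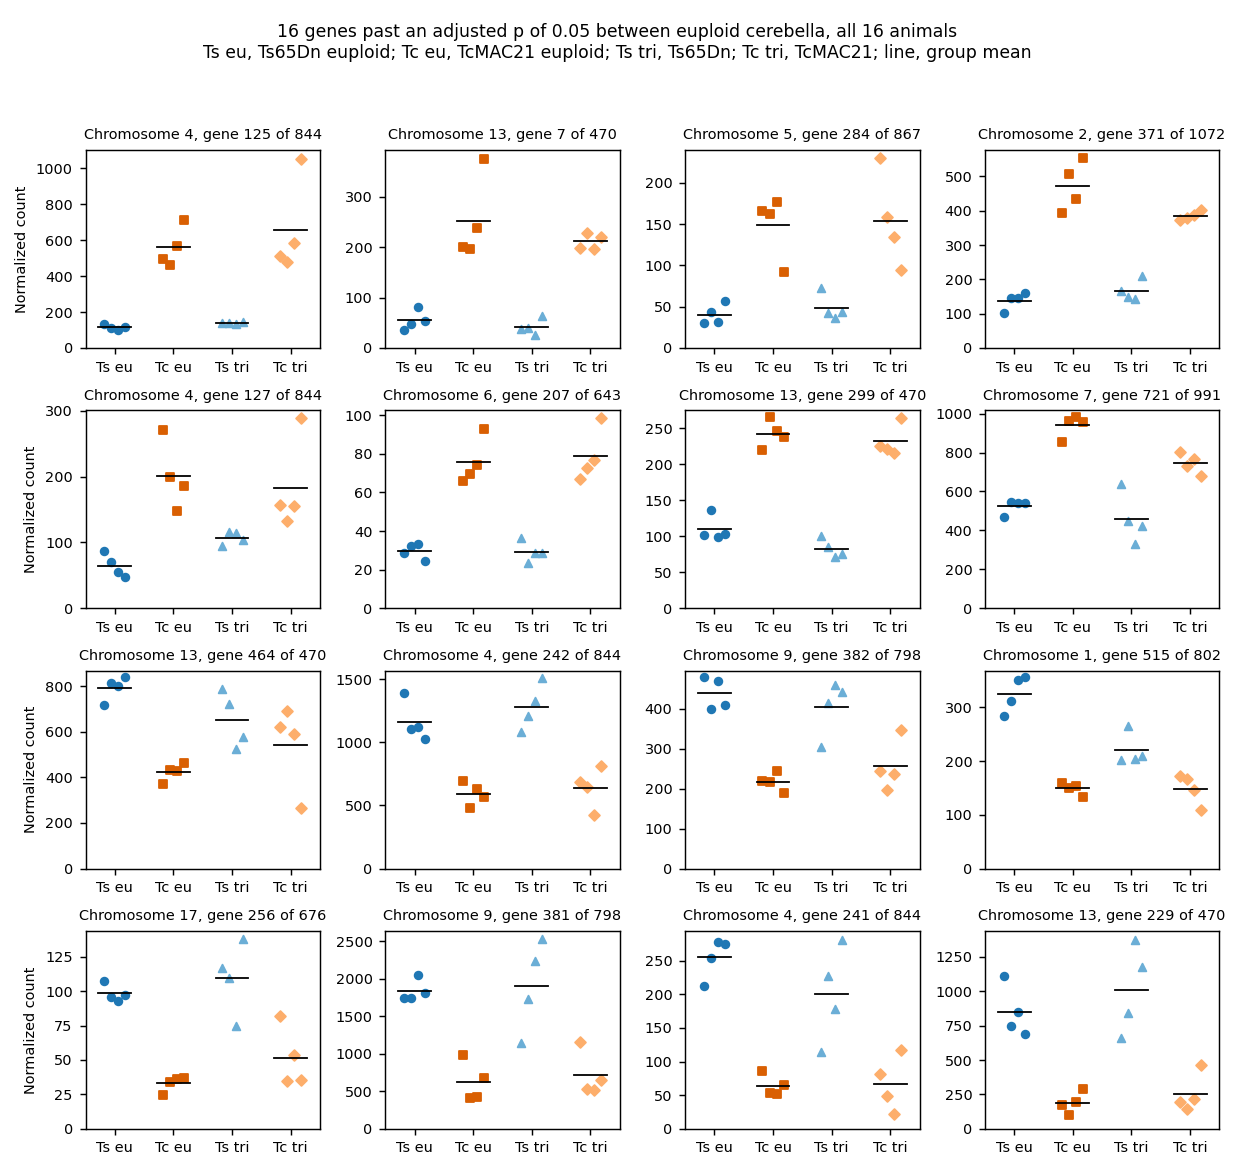
Normalized counts of the 16 genes past a limma adjusted p of 0.05 between Ts65Dn euploid (Ts eu) and TcMAC21 euploid (Tc eu) pups, with the trisomic pups of the same crosses (Ts tri, Tc tri) beside them. Each point is 1 pup and each line a group mean of 4, and in all 16 panels the points of the 2 euploid groups do not overlap.

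The trisomic littermates allowed the crosses to be compared in other animals. Genes on chromosomes 16 and 17 were left out because Ts65Dn pups carry extra copies of genes there. The Ts65Dn and TcMAC21 pups also differ in the kind of trisomy, which cannot be told apart from cross in this contrast. These pups shared litters with the euploid pups but no library. Between Ts65Dn and TcMAC21 pups, limma called 73 of 11840 genes (0.617%), 25 higher (0.211%) and 48 lower (0.405%) in Ts65Dn. This count was 519 without Ts65Dn replicate 1, 603 without TcMAC21 replicate 4 and between 12 and 21 without any one of the other 6 pups. In 1354 genes (11.4%) the groups did not overlap, with 616 (5.2%) higher and 738 (6.23%) lower in Ts65Dn. Without Ts65Dn replicate 1 the number was 2821, without TcMAC21 replicate 4 it was 2818, and without any one of the other 6 pups it was 1431 to 1914.

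The differences between the euploid pups recurred in direction. Of the 16 genes called in the euploid pups, 15 lay outside chromosomes 16 and 17. All 15 had the same sign between the trisomic pups, beside 73.6% of all 11840 genes outside these chromosomes. The trisomic groups did not overlap in 11 of the 15, namely all 8 genes lower in Ts65Dn euploid and 3 of the higher genes. The gene on chromosome 17 also had the same sign, with overlap. By limma, 8 of the 15 were also called in the trisomic pups, 6 lower and 2 higher. These 8 made up 53.3% of the 15 euploid calls and 11% of the 73 trisomic calls. Both shares rested on the pups included. When Ts65Dn euploid replicate 1 was left out, limma called 288 genes outside chromosomes 16 and 17. Of these, 276 (95.8%) had the same sign in the trisomic pups, and 31 (10.8%, or 42.5% of the 73) were called there. With replicate 1 included again, 90 (31.2%) of the 288 separated the crosses the same way in both the euploid and the trisomic pups. Of 401 genes outside chromosomes 16 and 17 called by DESeq2 from all euploid pups, 166 (41.4%) separated the crosses the same way in both the euploid and the trisomic pups. Conversely, all 73 genes called between the trisomic pups had the same sign between the euploid pups, 41 of them without overlap there, and 63 (86.3%) had an unadjusted limma p under 0.05.

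The identifiers printed above had the following values in the trisomic pups. Gene chr4.333597 read 136, 138, 132 and 146 in the 4 Ts65Dn pups and 512, 479, 583 and 1052 in the 4 TcMAC21 pups, with a log2 difference of −2.17 ± 0.22 (SE, limma adjusted p = 0.00249). Gene chr13.125920 read 37.6, 39.3, 25.6 and 62.8 in Ts65Dn against 199, 229, 197 and 221 in TcMAC21, with a log2 difference of −2.40 ± 0.24 (SE, limma adjusted p = 0.00249). In both genes all TcMAC21 pups lay above all Ts65Dn pups, as in the euploid littermates.

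On the higher side, chr13.136080 read 660.1, 839, 1376 and 1177 in Ts65Dn and 197, 145, 213 and 462 in TcMAC21, with a log2 difference of 2.07 ± 0.33 (SE, limma adjusted p = 0.0244). Gene chr4.338558 kept its direction without passing the threshold, at 114, 227, 178 and 281 in Ts65Dn against 81.3, 49.1, 21.6 and 117 in TcMAC21 (log2 difference 1.73 ± 0.45, SE, limma adjusted p = 0.0967). Its groups overlapped, since the lowest Ts65Dn pup (114) fell below the highest TcMAC21 pup (117). The least close repeat was that of gene 464 on chromosome 13, which read 718 to 838 against 371 to 462 in the euploid pups but 525 to 786 against 265 to 689 in the trisomic pups (limma adjusted p = 0.503).

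Over all 11840 genes outside chromosomes 16 and 17, the log2 differences between crosses in the euploid and in the trisomic pups correlated with Pearson's r of 0.667 and Spearman's rho of 0.635. Without Ts65Dn euploid replicate 1 these were 0.596 and 0.544. Both describe agreement across genes, which are not independent replicates, and the 2 sets of pups share crosses and litters. Of the 1177 genes (9.94%) that separated the euploid groups here, 612 were higher (5.17%) and 565 lower (4.77%) in Ts65Dn euploid. Of the same 1177, 1072 (91.1%) had the same sign in the trisomic pups. In 323 genes, 27.4% of the 1177 and 23.9% of the 1354, the crosses were separated the same way in both sets of pups, 155 higher and 168 lower in the Ts65Dn cross (2.73% of all 11840). In 0 genes were they separated in opposite ways. Without Ts65Dn euploid replicate 1 the counts were 511 in the same and 7 in opposite ways, and without the trisomic TcMAC21 replicate 4 they were 521 and 1. Without both of these pups they were 782 and 11. They were 515 and 0 without TcMAC21 euploid replicate 4 and 564 and 1 without Ts65Dn replicate 1. Leaving out any one of the other 12 pups gave 334 to 422 in the same and 0 to 6 in opposite ways. Groups with a pup left out separate more easily. The difference between the 2 contrasts was tested as the interaction of cross and genotype over all 16 animals, without a term for litter or littermate pair. By limma 0 of 12938 genes passed (lowest adjusted p = 0.161), and 359 genes (2.77%) had an unadjusted p under 0.05. Genes on chromosomes 16 and 17, some of which have an extra copy in Ts65Dn alone, were among the 12938 and did not pass either, so the count of 0 does not show that the contrasts were alike. No other tool was run for this test.

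**Figure D3:**
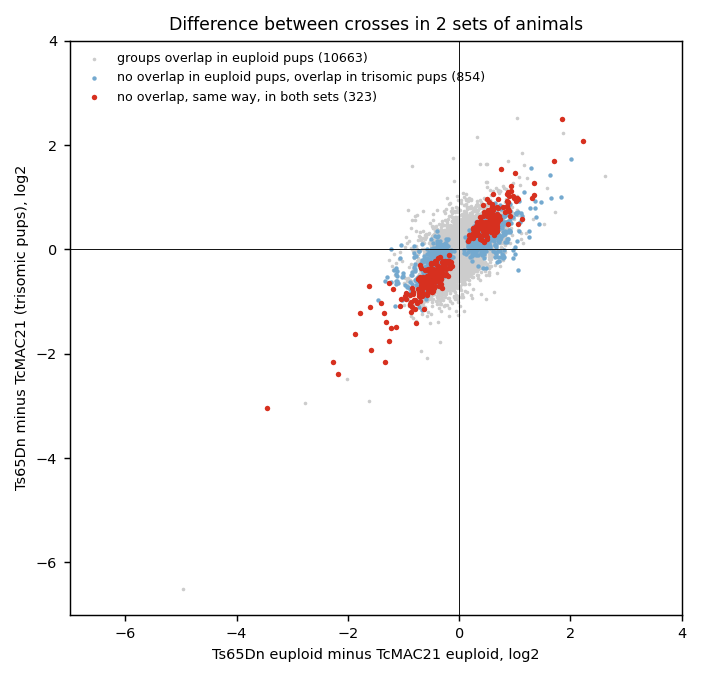
Log2 difference between crosses in euploid pups (horizontal axis) against that in trisomic pups (vertical axis) for 11840 genes outside chromosomes 16 and 17, each point a gene. The 323 red genes, separated the same way in both sets of 8 pups, lie in the lower left and upper right quadrants, and Pearson's r over all points is 0.667.

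Among the 323 recurring genes, 31 differed by at least 2-fold in the euploid pups, 12 higher and 19 lower in Ts65Dn euploid, on 15 chromosomes. With Ts65Dn euploid replicate 1 left out there were 42 such genes among 511, with 24 higher and 18 lower. Of the 31, 9 were called by limma in the euploid pups and 27 by DESeq2, which left the adjusted p of 2 others empty. Most of the 31 were thus outside the limma threshold in the euploid pups. Gene 693 of 802 on chromosome 1 was counted among the 31 on a gap near the floor. Its lowest TcMAC21 euploid value was 2.73 (2 reads), and its highest Ts65Dn euploid value was 2.7 (5 reads). Gene 368 of 641 on chromosome 3 was the most abundant of the 31, with 2487, 2198, 1976 and 1757 normalized counts in Ts65Dn euploid and 3428, 8342, 7714 and 3738 in TcMAC21 euploid. Replicates 2 and 3 of TcMAC21 euploid were about 2 times replicates 1 and 4 (log2 difference −1.36, limma adjusted p = 0.0964).

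Gene 445 of 646 on chromosome 10 showed a stepped pattern within TcMAC21 euploid. It read 229, 275, 234 and 268 in Ts65Dn euploid and 138, 201, 34.5 and 34.8 in TcMAC21 euploid, a log2 difference of 1.70 (limma adjusted p = 0.180). The TcMAC21 pups repeated this split with 155, 178, 55.4 and 73.1, all below the Ts65Dn pups at 279 to 417. Gene 903 of 1072 on chromosome 2 read 10.9, 24.6, 57.2 and 63.4 in TcMAC21 euploid against 96.5 to 142 in Ts65Dn euploid, and 65.7, 10.1, 5.63 and 33.6 in TcMAC21 against 108 to 121 in Ts65Dn. In both genes the Ts65Dn euploid pups lay close together while the TcMAC21 euploid pups were spread.

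Gene 258 of 541 on chromosome 15 read 297, 387, 455 and 408 in Ts65Dn euploid and 567, 587, 840.1 and 2504 in TcMAC21 euploid, where replicate 4 alone lay far above the rest. In the trisomic pups TcMAC21 replicate 4 was also far above its group, at 5112 against 496 to 635 in the other 3. Gene 183 of 468 on chromosome 14 missed the limma threshold more narrowly, at 20 to 42.0 in Ts65Dn euploid and 78.1 to 138 in TcMAC21 euploid (log2 difference −1.59, adjusted p = 0.0586), and passed it in the trisomic pups (log2 difference −1.93, adjusted p = 0.00441). Gene 652 of 802 on chromosome 1 read 320.02 to 373 in Ts65Dn euploid and 146 to 229 in TcMAC21 euploid (log2 difference 1.02, limma adjusted p = 0.0542).

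The widest difference of all lay in a run of 3 consecutive genes on chromosome 1, genes 691 to 693 of 802. Gene 691 had 4.74, 2.7, 2.21 and 1.69 normalized counts in Ts65Dn euploid, which are 3, 5, 1 and 2 reads. In TcMAC21 euploid it had 262, 2.73, 306 and 589.7, which are 361, 2, 337 and 577 reads. Replicate 2 of TcMAC21 euploid was thus as low as the Ts65Dn euploid pups, while the other 3 pups of its group had more than 200 normalized counts. All 4 TcMAC21 pups were high (335, 287, 247 and 588) and all 4 Ts65Dn pups low (2.27 to 3.94).

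The next genes in the run followed the same pups. Gene 692 had at most 5.93 normalized counts in Ts65Dn euploid and 61.8, 4.09, 44.5 and 49.1 in TcMAC21 euploid, and gene 693 had at most 2.7 against 49.4, 2.73, 36.3 and 64.4. In both genes replicate 2 of TcMAC21 euploid was again the low pup. On the log2(normalized count + 1) scale, which understates the change of genes this low, the differences were −4.97 ± 1.26, −2.77 ± 0.72 and −3.45 ± 0.82 (SE) for genes 691, 692 and 693, and limma did not call them (adjusted p = 0.127, 0.137 and 0.113). DESeq2 on the recovered reads did (adjusted p = 2.7e-05, 0.000544 and 9e-05). All 3 genes reached the minimum mean of 10 only through the TcMAC21 euploid pups, so these values describe the run and do not support it. Between the trisomic pups limma called all 3, with log2 differences of −6.50, −2.95 and −3.05 (adjusted p = 1.1e-06, 0.00331 and 0.0139). The interaction with genotype was not called by limma for any of them.

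The genes on either side of the run were expressed in every pup. Gene 690 read 2748 to 3325 in Ts65Dn euploid and 3419 to 4023 in TcMAC21 euploid, and gene 694 read 718 to 1025 against 919.8 to 1159.8. Their log2 differences of −0.31 and −0.29 did not pass the threshold (limma adjusted p = 0.255 and 0.374). The near absence of reads was thus seen in genes 691 to 693 and not in either adjoining gene.

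A second search asked for genes with reads in one cross only, at 3 reads or fewer in every pup of one cross and at least 10 normalized counts in every pup of the other. It found 0 genes with all pups and 1 without Ts65Dn euploid replicate 2, the most deeply sequenced library. This was gene 324 of 676 on chromosome 17, found after its values were seen, with 0, 5.41, 0 and 2.54 normalized counts in Ts65Dn euploid (0, 10, 0 and 3 reads) and 23.3, 12.3, 19.1 and 20.4 in TcMAC21 euploid (32, 9, 21 and 20 reads). It reached the minimum mean only through the TcMAC21 euploid pups and was picked for this pattern, and limma did not call it (log2 difference −3.14 ± 0.60, SE, adjusted p = 0.0859).

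Pups of one cross differed widely in a small number of genes. In TcMAC21 euploid, 6 of 12938 genes (0.0464%) had a highest and a lowest pup at least 8-fold apart, with the highest at 100 normalized counts or more. The number was 3 without replicate 1, 4 without replicate 4 and 5 without either of the others. One was gene 691 on chromosome 1, and 4 lay close together on chromosome 12, at places 56, 57, 58 and 67 of 474. Without replicate 1 the ranges of genes 56, 57 and 58 fell to 4.82-fold, 6.37-fold and 2.28-fold, and of the 4 only gene 67 stayed above 8-fold, at 52.1-fold. Gene 56 read 219, 127, 41.8 and 25.6 in TcMAC21 euploid replicates 1 to 4, and gene 57 read 209, 90.1, 29.1 and 13.3. Both were highest in replicate 1 and lowest in replicate 4.

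Gene 58, between them and gene 67 in identifier order, ran the other way, at 4.36, 146, 249 and 334 in the same pups. Gene 67 read 184, 146, 1.82 and 3.07. Replicate 1 thus had nearly no reads of gene 58 and high values of the other 3 genes, whereas replicates 3 and 4 had the reverse. The TcMAC21 pups showed the same opposition, with gene 58 at 4.95, 234, 232 and 162 and gene 67 at 183, 2.34, 1.88 and 57.3.

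The Ts65Dn euploid pups were less spread at these places. Gene 58 read 174, 179, 50.8 and 179 there, and gene 67 read 68.0, 82.7, 139 and 65.2. Replicate 3 was lowest for gene 58 and highest for gene 67. The ranges of the crosses overlapped at all 4 genes, and none was called between the crosses (limma adjusted p from 0.441 to 0.86).

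The sixth gene, gene 60 of 867 on chromosome 5, read 650.3, 679.6, 45.4 and 530.4 in TcMAC21 euploid and 971, 1300.1, 1167 and 1168 in Ts65Dn euploid. Replicate 3 of TcMAC21 euploid was far below the rest, and all TcMAC21 euploid pups were below all Ts65Dn euploid pups. Limma did not call the difference (adjusted p = 0.276). In Ts65Dn euploid 7 genes met the same 8-fold rule, and 0 met it without replicate 1, 3 without replicate 4, and 6 or 7 without either of the others. Gene 265 of 1102 on chromosome 11, for instance, read 106 in replicate 1 and 2.21 to 6.78 in the other 3. Among trisomic pups, 2 genes met the rule in Ts65Dn, or 1 without replicate 1, 2 or 3, and 10 in TcMAC21, or 2 without replicate 1 and 4 without replicate 4.

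**Figure D4:**
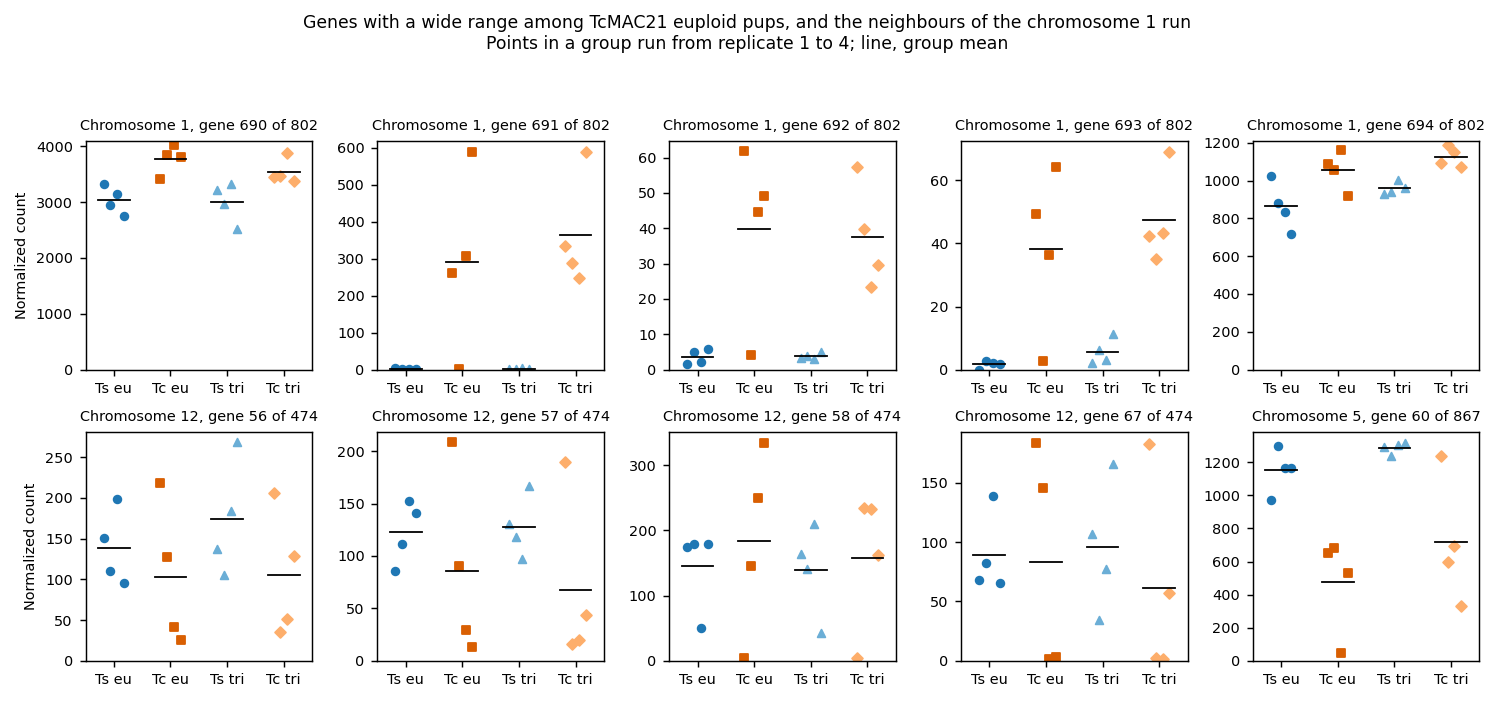
Normalized counts of the chromosome 1 run with its neighbours (upper row, genes 690 to 694) and of the 5 other genes with an 8-fold range among TcMAC21 euploid pups (lower row), with points from replicate 1 to 4 in each group and a line at the group mean. In genes 691 to 693 TcMAC21 euploid replicate 2 lies with the Ts65Dn cross, and in the chromosome 12 panels gene 58 is low in the pup in which genes 56, 57 and 67 are high.

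Genes separating the crosses were spread over all autosomes. The share of genes whose euploid groups did not overlap ran from 8.23% on chromosome 12 to 13.4% on chromosome 18, around 9.95% for all genes. With Ts65Dn euploid replicate 1 left out, the lowest share was 16.8% (chromosome 3) and the highest 22.4% (chromosome 11), and chromosomes 12 and 18 had 20.3% and 22.1%, so the order of chromosomes depended on that pup. On chromosome 18, 15 genes were higher and 30 lower in Ts65Dn euploid. Chromosomes 4 and 13, with 4 called genes each, had 9.83% and 11.1% without overlap. Of the 1287 genes without overlap, 178 (13.8%) had a neighbour in identifier order separated the same way, as did 20 (6.19%) of the 323 recurring genes. Over all 12938 genes, 10.2% had a neighbour separated with higher and 9.04% one with lower values in Ts65Dn euploid. Over the 11840 genes outside chromosomes 16 and 17, 2.59% had a recurring neighbour with higher and 2.81% one with lower values. Omitting Ts65Dn euploid replicate 1 raised the shares with a neighbour separated the same way to 21.9% of 2611 genes and 8.61% of 511 recurring genes. Genes without overlap themselves rose from 9.95% to 20.2% of all genes when that pup was omitted. The matching shares over all genes were not counted without that pup. Whether 21.9% and 8.61% exceed those shares was therefore not tested.

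Windows of 25 consecutive genes gave a similar picture. The 506 windows held a median of 2 genes without overlap, 35 windows held 0, and the highest count was 8, in genes 376 to 400 of chromosome 11 (5 higher and 3 lower in Ts65Dn euploid). When Ts65Dn euploid replicate 1 was omitted, the median was 5, and the highest count was 12, in genes 676 to 700 of chromosome 8 and genes 276 to 300 of chromosome 11, with 10 in genes 376 to 400 of chromosome 11. Recurring genes reached 4 in a window at most. The 4 windows at this count were genes 676 to 700 of chromosome 1, 576 to 600 of chromosome 2, 501 to 525 of chromosome 3 and 226 to 250 of chromosome 19. The chromosome 1 window includes the run of low genes, of which only gene 693 counted as recurring. Its euploid groups were apart by 2.73 (2 reads, TcMAC21 euploid replicate 2) against 2.7 (5 reads, Ts65Dn euploid replicate 2). With Ts65Dn euploid replicate 1 omitted, the chromosome 1 window held 7 recurring genes, the most of any, and the next highest count was 5. Gene 691 was then also counted, on 2.73 normalized counts in TcMAC21 euploid replicate 2 against at most 2.7 in Ts65Dn euploid. In the chromosome 3 window all 5 euploid and all 5 trisomic separations were lower in the Ts65Dn cross.

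**Figure D5:**
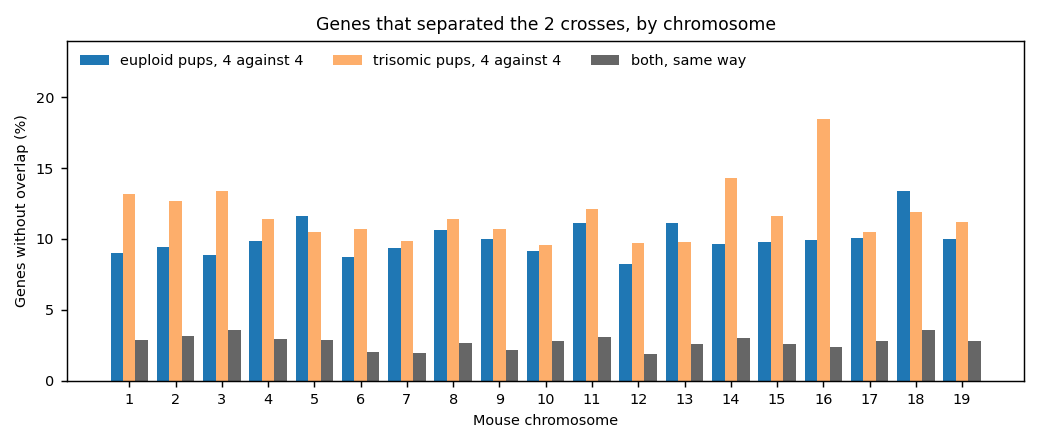
Percentage of genes per mouse autosome whose values did not overlap between crosses, in 4 against 4 euploid pups, in 4 against 4 trisomic pups, and the same way in both. The euploid bars run from 8.23% (chromosome 12) to 13.4% (chromosome 18) with all pups, an order that changed without Ts65Dn euploid replicate 1, and the highest trisomic bar is chromosome 16 at 18.5%, which carries genes with an extra copy in Ts65Dn.

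The spread among pups rested partly on single animals. The median SD of log2(normalized count + 1) over the 12938 genes was 0.25 among the Ts65Dn euploid pups and 0.24 among the TcMAC21 euploid pups. It was 0.12 for Ts65Dn euploid without replicate 1 and 0.17 for TcMAC21 euploid without replicate 4. Among trisomic pups it was 0.21 for Ts65Dn and 0.25 for TcMAC21, and 0.15 for TcMAC21 without replicate 4. Over the 11840 genes outside chromosomes 16 and 17, the median absolute log2 difference was 0.19 between the euploid groups and 0.21 between the trisomic groups. For comparison, it was 0.21 between Ts65Dn pups and their euploid littermates and 0.16 between TcMAC21 pups and theirs, and these contrasts share the euploid pups with the comparison of crosses. Groups did not overlap in 9.94% of genes for the euploid crosses and 11.4% for the trisomic crosses, next to 8.45% for Ts65Dn and 4.21% for TcMAC21 against their littermates.

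No value summed per pup passed the test between the crosses. The 100 most abundant genes took 16.9% ± 0.612 of all normalized counts in Ts65Dn euploid and 17.8% ± 1.38 in TcMAC21 euploid (SD, n = 4 each, exact permutation p = 0.286). The most abundant gene, on chromosome 9, took 2.30% to 4.67% in Ts65Dn euploid and 3.05% to 4.44% in TcMAC21 euploid (exact permutation p = 0.486). Summed values of the Y rows were above 100 in 2 of 4 Ts65Dn euploid and 3 of 4 TcMAC21 euploid pups (exact permutation p = 0.171). The other 3 pups were Ts65Dn euploid replicates 2 (3.24) and 3 (4.42) and TcMAC21 euploid replicate 4 (7.15), which also stood apart on the principal components. Among the trisomic pups the summed values were above 100 in 2 of 4 Ts65Dn and 4 of 4 TcMAC21 pups. The labels do not give the sex of the pups, and the part of sex in the differences between crosses was not tested beyond a fit with the summed Y values as a covariate, which called 4 genes by limma, all 4 among the 16. Adjusted over the 5 summed measures, including the reads on human chromosome 21 rows, the p-values of the exact permutation tests ran from 0.476 to 0.83.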

How the data were processed

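Poly(A) RNA from 16 whole P6 cerebella, 4 per group, was sequenced by the authors as paired 50 bp reads, aligned with STAR 2.4.2a to mm39 plus human chromosome 21, assembled into gene models by PsiCLASS from all samples together, and counted and scaled with DESeq2. Each signal value in the deposited table is thus a size-factor-normalized count, which the authors gave to 2 decimals. Groups and replicate numbers were taken from the labels, and no pair of libraries was identical. Values fell on steps of 1 read in each library (100% whole within a tolerance of 0.011, which covers the rounding), so that read counts could be recovered, with 6317856 to 25719969 per library. Depth limits cover counting error only.

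Genes with a mean of at least 10 over the 8 euploid pups, outside chromosomes 21, X and Y, were tested with limma 3.58.1 (lmFit, eBayes with trend) on log2(normalized count + 1) in R 4.3.3, with cross as the term and a Benjamini-Hochberg adjusted p under 0.05 over all genes tested. Fold changes are on the log2(value + 1) scale, which understates those of low genes. The same fit was made for the trisomic pups, and only calls outside chromosomes 16 and 17 were counted. Values per pup were compared by two-sided exact permutation tests (SciPy 1.17.1). Alternatives on the recovered reads were DESeq2 1.42.0 and the quasi-likelihood test of edgeR 4.0.16. Others were a pseudocount of 0.1, no filter, a minimum mean of 50, quantile normalization, a replicate block, all 16 animals in one fit, array weights, a covariate of the summed Y values, and each pup left out in turn. Both count tools without Ts65Dn euploid replicate 1, the recurring counts and 8-fold ranges without single pups, and chromosome, window, fold and level values without that replicate, were added after seeing the data. An adjusted p that DESeq2 left empty (252 genes) was kept empty. The limma, edgeR and DESeq2 steps were tested on simulated counts. The identifiers printed are those with the largest absolute log2 difference among called genes without overlap and with a mean of at least 100, 2 per direction, and other genes are given by chromosome and place. The genes, rules and lists were chosen with earlier results of these data known. No gene sequence is shown, since the identifiers were not paired with symbols or positions.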

Additional observations from a re-analysis of the deposited data

Results flagged for a closer look

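Within groups of 4 pups, the gap between the most distant pup and its nearest neighbour was divided by the range of the group for each of the 16 called genes and for the summed values of the euploid pups. The ratio exceeded Dixon's 95% limit in 4 of 76 groups, and chance alone passes this limit in about 1 in 20 groups. The ratio was 0.916 for gene 299 on chromosome 13 in Ts65Dn euploid, where replicate 2 (136) lay above the other 3 (99.5 to 102). It was 0.938 for gene 721 on chromosome 7 in Ts65Dn euploid, where replicate 1 (466) lay below the other 3 (539.5 to 544). Among trisomic pups it was 0.848 for gene 127 on chromosome 4 in TcMAC21, where replicate 4 (288) lay above the rest (132 to 156), and 0.907 for gene 515 on chromosome 1 in Ts65Dn, where replicate 2 (265) lay above the rest (203 to 208).

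Rows of human chromosome 21 were outside the comparison, and pups without the human chromosome still had reads there. The lowest total was 92 reads, in Ts65Dn euploid replicate 3. Totals ran from 92 to 331 in Ts65Dn euploid and from 201 to 454 in TcMAC21 euploid (two-sided exact permutation p = 0.286), beside 31241 to 67923 in the TcMAC21 pups. The source of these reads was not tested.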

How the results depend on the processing

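The count of genes called between the euploid crosses (16) stayed within 1.5-fold at a pseudocount of 0.1 (16), without a filter (16), by edgeR (14), with quantile normalization (20) and at a minimum mean of 50 (18). It moved to 451 by DESeq2, 149 with all 16 animals in one fit, 3419 with array weights, which gave Ts65Dn euploid replicate 1 a weight of 0.147 and TcMAC21 euploid replicate 3 a weight of 3.46, and 4 with the Y covariate. Leaving out 1 pup gave 3 to 315. Without Ts65Dn euploid replicate 1, edgeR called 304 and DESeq2 949. Trisomic calls (73) moved to 609 by DESeq2 and to between 12 and 603 with 1 pup left out. Genes without overlap (1287) numbered 1458 to 2948 with 1 pup out, the median SD ran from 0.119 to 0.286 in Ts65Dn euploid and from 0.171 to 0.261 in TcMAC21 euploid, and genes with reads in one cross only ran from 0 to 1. The share of called genes with the same direction in trisomic pups stayed between 95.8% and 100%. The causes of these moves were not tested.

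With the replicate number as a block, 7 genes were called between the euploid crosses, 6 of them among the 16, and 103 between the trisomic crosses. Numbers of different crosses do not pair pups, and deviations of same-numbered euploid pups correlated at 0.109, 0.177, −0.169 and −0.0827, highest with the own number for 1 of 4, and those of trisomic pups at 0.225, 0.241, 0.0481 and 0.268, for 2 of 4.

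Of the 4 identifiers printed, chr4.333597 and chr4.338558 stayed past the threshold in all 18 alternatives, chr13.125920 in 15 and chr13.136080 in 13, and none changed sign. Depth limits genes near the minimum mean, where 3 reads are up to 6.63 normalized counts.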
